A study of Danio rerio with 48 samples.

Results

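Crystallins are the soluble proteins that fill the fibre cells of the eye lens, and 53 crystallin genes of the alpha, beta and gamma families were followed here in heads of zebrafish larvae. Members were taken by gene symbol, as all symbols beginning with cryaa, cryab, cryba, crybb or cryg, which leaves out the light-sensing cryptochromes. They were 53 of the 25377 genes in the deposited table. Of these, 43 held enough counts to be tested and 10 did not.

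The larvae came from a mixed wild-type line and were kept in PFOS (perfluorooctane sulfonic acid, a fluorinated surfactant that persists in the environment) at 0.88, 1.57 or 2.8 µM, or in the vehicle alone, with 0.4% dimethyl sulfoxide (DMSO) in all groups and solutions renewed daily. Heads were cut in front of the swim bladder at 5 or 4 days post fertilisation (dpf), so each library also holds brain, skin, muscle and other eye tissue. There were 8 groups (0.88 µM, 1.57 µM, 2.8 µM and DMSO at 5 dpf, and the same at 4 dpf), each with 6 libraries, and every library was made from polyA RNA of 15 pooled heads. Whether the pools of a group stem from different clutches is not in the labels. The p-values therefore reflect spread among pools, which may be partly technical.

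Alpha crystallins are small heat shock proteins that act as chaperones as well as structural proteins. Beta crystallins form oligomers and are divided into acidic (beta A) and basic (beta B) chains, while gamma crystallins are monomers packed at high density. Fish lenses carry a large class of methionine-rich gamma M crystallins, and the zebrafish lens keeps adding fibre cells throughout larval life. In pooled heads, fewer lens cells and less crystallin RNA per lens cell cannot be told apart.

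By class, the table held 3 alpha genes, 7 beta A genes, 6 beta B genes, 29 gamma M genes and 8 genes of the gamma N, S and MX groups. The gamma M genes were split here into the 18 named crygm2d and the 11 others. All 18 crygm2d genes lay on the minus strand of chromosome 9 within 248 kb (22091161 to 22339583, GRCz11), whereas the 7 beta A genes lay on 7 chromosomes and the 6 beta B genes on 6. In all, 32 of the 53 members were on chromosome 9. The gene models of 16 members overlap another crystallin, for instance crygm2d9 with 8 other crygm2d genes. How alike the copies are in sequence was not checked. Reads may have been split between overlapping or similar copies by the counting. The level of a single crygm2d gene is thus uncertain, and the family is also given as a sum.

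Library totals lay between 14475197 and 28926584 counts. By log2 CPM, 3 libraries stood apart from the rest of their age, with a median correlation under 0.95: 0.88 µM replicate H and 1.57 µM replicate D at 5 dpf, and 2.8 µM replicate A at 4 dpf. These 3 held the most crystallin RNA of the series. Crystallins took 9.93% of the counts in 0.88 µM replicate H at 5 dpf (95% Wilson interval 9.919 to 9.950) and 9.71% in 2.8 µM replicate A at 4 dpf, against 4.96% over all 48 libraries. The lowest share was 2.29%, in 1.57 µM replicate I at 5 dpf (95% Wilson interval 2.283 to 2.294). Such intervals cover counting error only. CPM levels below include these 3 libraries. Replicate A at 2.8 µM often sets the highest 4 dpf level, such as 136 CPM for crygm2f, where the next pool had 66.5 CPM. For some results the value without one of the 3 is also given.

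Markers of lens fibre cells were present. Levels are given as CPM, counts scaled to a common library total with TMM factors. The water channel gene mipb (aquaporin 0) had a median of 853 CPM at 5 dpf, with a range from 413 to 1370, and of 597 CPM at 4 dpf, with a range from 320 to 1021. The beaded filament gene bfsp2 had medians of 112 CPM at 5 dpf and 144 CPM at 4 dpf.

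Most crystallin RNA came from few genes. The crygm2d genes together took 48.1% of all crystallin counts, the beta B genes 32.5%, the beta A genes 13.8%, the gamma N, S and MX genes 5.07%, the alpha genes 0.374% and the other gamma M genes 0.103%. The 8 genes with the most counts took 67.3%. These shares are of counts and are not corrected for transcript length, since lengths are not used here, so they describe the libraries and not copies of RNA per gene.

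The leading gene was crybb1l1, with 13.5% of crystallin counts, followed by its relative crybb1l2 with 12.3%. Next came crygm2d10 with 9.47%, cryba1b with 8.38%, crygm2d8 with 8.27% and crybb1 with 6.69%. At the other end, 10 members had between 10 and 183 counts summed over all 48 libraries and were not tested: the alpha B genes cryaba and cryabb, crygm1, crygm3, crygm4, crygm6, crygm7, crygs1, crygs2 and crygs4. Both alpha B genes were at the edge of detection. No count of cryaba was found in 17 of 24 libraries at 5 dpf and in 16 of 24 at 4 dpf, and cryabb had a median of 0.22 CPM at 5 dpf and 0.13 CPM at 4 dpf. Alpha crystallin RNA in these heads was thus read almost wholly from cryaa.

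**Figure D1:**
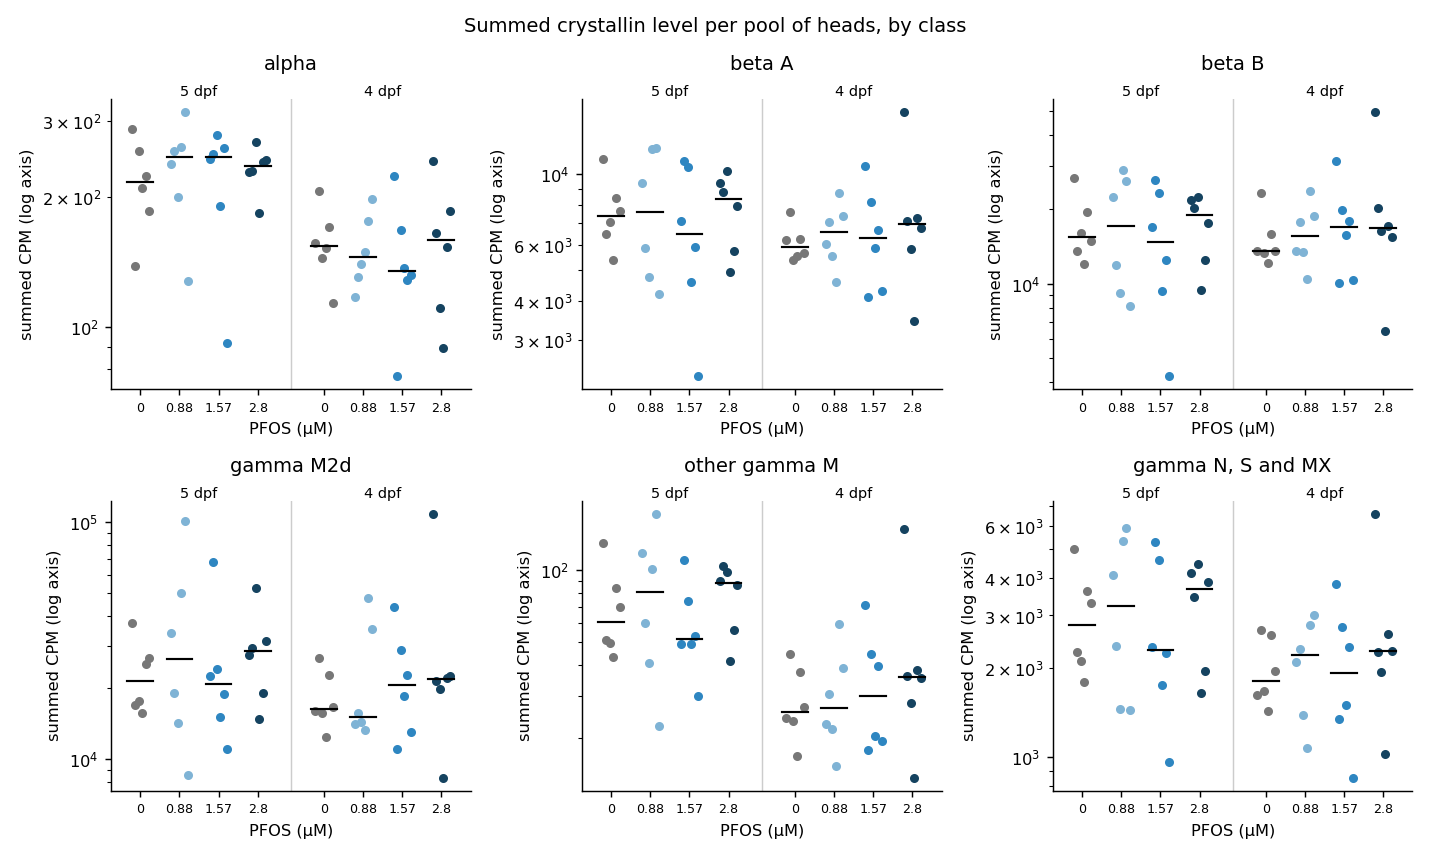
Summed CPM of each crystallin class in every pool (log axis), with 5 dpf left of 4 dpf, PFOS in µM on the horizontal axis (0 is DMSO) and the median of the 6 pools as a black line. The 4 dpf pool above all others of that age in all 6 panels is replicate A at 2.8 µM; in the gamma M2d panel it reads 108200 CPM.

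Between ages, genes of each crystallin class changed, and differences between classes were not tested. For the PFOS groups the length of exposure at each age is not given here, and its part in the age contrasts was not tested. Over the 4 concentrations together, 13 of the 43 tested members passed an adjusted p of 0.05 between 5 and 4 dpf. The test was edgeR quasi-likelihood with Benjamini-Hochberg adjustment over 20021 genes. This is 30.2% of members, with 43.3% of all genes passing. The count ran from 13 to 19 over 48 fits that each left out a pool, so a share below that of all genes is not settled. Members also spread more within groups, with a median SD of 0.792 log2 units against 0.437 for all genes. The part of this spread in the share of members called was not tested. Of the 13 called with all pools, 12 were higher at 5 dpf, where 22.8% of all genes were. Only crybb2 was lower, where 20.5% of all genes were. Of the 12 that rose, 9 were gamma genes, as were most of the 43 tested members (18 crygm2d, 6 other gamma M and 5 gamma N, S and MX genes). Of the 18 abundant crygm2d genes only crygm2d2 passed, and of the 4 most abundant beta A genes only cryba1l1.

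The alpha A gene cryaa, on chromosome 1 (29096881 to 29100924), rose. Its median was 239 CPM at 5 dpf (92 to 313) and 151 CPM at 4 dpf (77 to 242), each over 24 pools. In all, 21 of the 24 pools at 5 dpf lay above the 4 dpf median, and 11 lay above the highest 4 dpf pool. The log2 fold change was 0.56 ± 0.11 (SE, adjusted p = 7.87e-05, edgeR), a 1.48-fold rise. With a standard deviation of 0.42 log2 units within groups, cryaa was the steadiest tested member between pools.

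Among beta A genes, whose chains pair with beta B chains in the lens, 2 of 7 rose and none fell. Of all genes, 22.8% rose and 20.5% fell. The abundant cryba1l1 had a median of 1754 CPM at 5 dpf (574 to 3075) and 1272 CPM at 4 dpf (641 to 2646), a log2 fold change of 0.52 ± 0.16 (adjusted p = 0.0075, edgeR). The scarcer cryba2b had 93.7 CPM at 5 dpf (49.1 to 401) and 63.3 CPM at 4 dpf (29.2 to 165), a log2 fold change of 0.82 ± 0.20 (adjusted p = 0.000614). The age ranges overlapped for both genes. The most abundant beta A gene, cryba1b, did not pass: its medians were 4246 CPM at 5 dpf and 3957 CPM at 4 dpf, with a log2 fold change of 0.04 and a 95% interval from -0.28 to 0.37. For cryba4 and cryba2a the log2 fold changes were 0.20 and 0.20, and neither passed.

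Of the 6 beta B genes, 1 fell (20.5% of all genes did) and none rose (22.8%). The 3 abundant ones sat near 0: crybb1l1 had medians of 7381 CPM at 5 dpf and 6569 CPM at 4 dpf with a log2 fold change of -0.06 (95% interval -0.41 to 0.29), crybb1l2 had 0.10 (-0.28 to 0.48) and crybb1 had -0.28 (-0.71 to 0.14). These intervals leave out a doubling and a halving. The scarce crybb2 fell to a median of 1.23 CPM at 5 dpf (0.23 to 3.40), against 2.45 CPM at 4 dpf (1.09 to 14.2), with 20 of 24 pools at 5 dpf below the 4 dpf median. Its log2 fold change was -1.15 ± 0.28 (adjusted p = 0.000623, edgeR). The crybb2 model overlaps another gene, si:dkey-56i24.1, so its reads may include some of that gene.

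The crygm2d family as a whole did not pass. Summed over its 18 members and tested as 1 feature, an alternative chosen after seeing the data, it had a log2 fold change of 0.26 ± 0.25 (adjusted p = 0.418, edgeR) and a 95% interval from -0.24 to 0.76. Without 2.8 µM replicate A at 4 dpf it was 0.46, with an interval from 0.01 to 0.91 (adjusted p = 0.086), and without all 3 libraries that stood apart it was 0.18 (-0.20 to 0.57). Within the family the log2 fold changes ran from -0.18 for crygm2d4 to 0.94 for crygm2d2. The gene crygm2d2, which overlaps no other model, had a median of 448 CPM at 5 dpf (215 to 2055) and 230 CPM at 4 dpf (119 to 1343), and 23 of 24 pools at 5 dpf lay above the 4 dpf median (0.94 ± 0.25, adjusted p = 0.00189). The family's leading gene, crygm2d10, had 4048 CPM at 5 dpf and 3513 CPM at 4 dpf and did not pass (0.52 ± 0.26, adjusted p = 0.108). The next, crygm2d8, had 0.10 ± 0.23, crygm2d3 had 0.26 ± 0.25 and crygm2d17 had 0.02 ± 0.24.

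The other gamma M genes gave the steepest rises. Of the 6 tested, which lie on both sides of the crygm2d array on chromosome 9, 4 rose, as did 22.8% of all genes. The gene crygm2e (22080122 to 22080990) had a median of 4.50 CPM at 5 dpf (1.44 to 14.0) and 1.14 CPM at 4 dpf (0.66 to 5.83), and all 24 pools at 5 dpf lay above the 4 dpf median. Its log2 fold change of 1.86 ± 0.20 (adjusted p = 2.65e-10, edgeR) is 3.63-fold and had the smallest p of any member.

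Close by, crygm2c had 0.95 CPM at 5 dpf (0.23 to 1.69) and 0.17 CPM at 4 dpf (0 to 1.75), a log2 fold change of 1.86 ± 0.28 (adjusted p = 2.99e-07). Here too all 24 pools at 5 dpf lay above the 4 dpf median. For crygm2b the medians were 0.75 CPM at 5 dpf (0.18 to 2.13) and 0.25 CPM at 4 dpf (0 to 0.59), a log2 fold change of 1.70 ± 0.26 (adjusted p = 6.59e-07). These genes were scarce, with 594 counts of crygm2c and 560 of crygm2b in the whole series. Some of their reads could belong to other gamma M copies.

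The more abundant crygm2f had 58.6 CPM at 5 dpf (19.3 to 151) and 27.0 CPM at 4 dpf (11.5 to 136), a log2 fold change of 1.01 ± 0.22 (adjusted p = 0.000209, edgeR). Its model overlaps that of crygm5 on the same strand, and crygm5 did not pass (-0.35 ± 0.28). With no filter on low counts, crygm7 and crygm1 also passed, at log2 fold changes of 2.68 and 2.00 (adjusted p = 4.1e-05 and 0.0324, edgeR). They rest on 59 counts of crygm7 and 28 of crygm1 in all 48 libraries.

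Gamma N crystallins, an old branch that resembles both beta and gamma forms, rose in both members, as did 22.8% of all genes. The gene crygn1 on chromosome 2 had a median of 4.32 CPM at 5 dpf (2.56 to 10.8) and 1.72 CPM at 4 dpf (0.74 to 3.60). All 24 pools at 5 dpf lay above the 4 dpf median and 16 lay above the highest 4 dpf pool. The log2 fold change was 1.40 ± 0.17 (adjusted p = 2.44e-09, edgeR). The crygn1 model overlaps BX908782.3, so its reads may include some of that gene.

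The abundant crygn2 on chromosome 24 had 1071 CPM at 5 dpf (433 to 3072) and 572 CPM at 4 dpf (194 to 1953), a log2 fold change of 1.06 ± 0.23 (adjusted p = 0.000203, edgeR). In the MX group, crygmx had 932 CPM at 5 dpf (280 to 1877) and 657 CPM at 4 dpf (333 to 1141), a log2 fold change of 0.56 ± 0.15 (adjusted p = 0.00194). The scarce crygmxl1 rose by 1.14 ± 0.22 (adjusted p = 4.7e-05). Next to crygmx on chromosome 12, at a distance of 996 bases, crygmxl2 did not pass, with medians of 833 CPM at 5 dpf and 886 CPM at 4 dpf and a log2 fold change of -0.08 (95% interval -0.54 to 0.37).

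**Figure D2:**
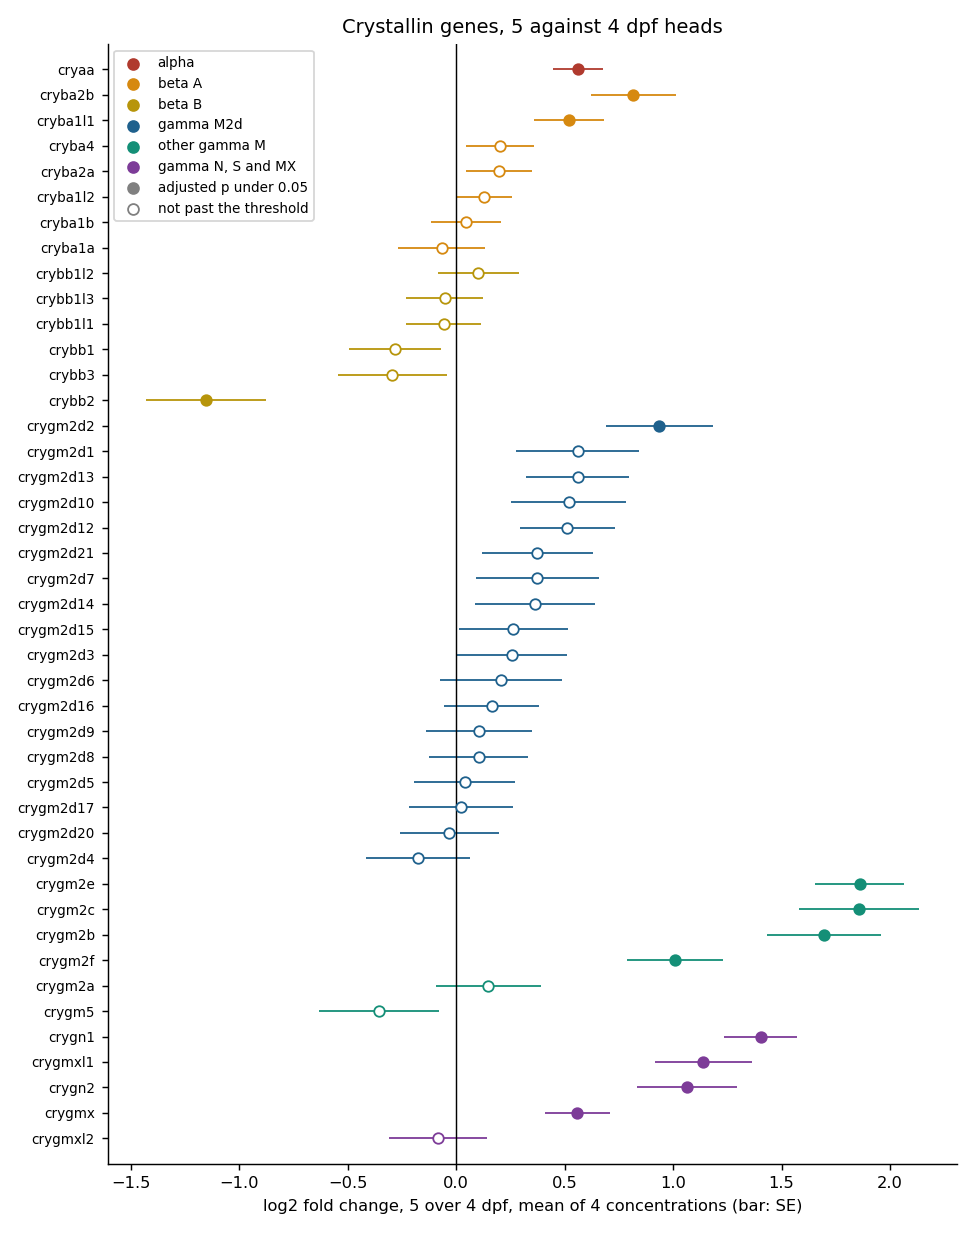
Log2 fold change of each tested member, 5 over 4 dpf averaged over the 4 concentrations, with its SE as a bar, coloured by class; filled points passed an adjusted p of 0.05. The 12 filled points right of 0 include 4 of the 6 other gamma M genes, 1 of the 18 gamma M2d genes and no beta B gene, and crybb2 is the one filled point left of 0.

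The total of crystallin RNA did not separate the ages, whereas the share of one class did. Summed over all members, crystallins averaged 57170 ± 30300 CPM at 5 dpf and 51260 ± 32200 CPM at 4 dpf (SD, n = 24 each), with overlapping ranges. The 4 dpf values include 180400 CPM in 2.8 µM replicate A, where the next pool had 90010 CPM. The other gamma M genes made up 0.133 ± 0.022% of crystallin counts at 5 dpf and 0.069 ± 0.009% at 4 dpf (SD, n = 24 each). Their lowest share at 5 dpf, 0.098%, was above their highest at 4 dpf, 0.082%, so the ages did not overlap. Most of this class sum was crygm2f, with a mean of 65.94 of 74.1 CPM at 5 dpf and 33.24 of 36.45 CPM at 4 dpf.

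The gamma N, S and MX genes made up 5.60 ± 0.75% at 5 dpf and 4.52 ± 0.72% at 4 dpf. For the beta B genes the shares were 30.9 ± 4.7% at 5 dpf and 35.5 ± 3.5% at 4 dpf, and for the beta A genes 14.2 ± 2.2% and 14.3 ± 2.2%. The crygm2d genes had 48.7 ± 7.2% at 5 dpf and 45.4 ± 5.5% at 4 dpf. Class shares are given as a description, with no test.

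The ribosomal protein level, which followed that of crystallins from pool to pool as described further on, was also higher at the later age, at 7.79 ± 0.62 mean log2 CPM at 5 dpf and 7.31 ± 0.68 at 4 dpf (79 genes, SD, n = 24 each). Skeletal muscle genes were at 9.79 ± 0.49 at 5 dpf and 9.08 ± 0.46 at 4 dpf. The part of either in the age differences was not tested.

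**Figure D3:**
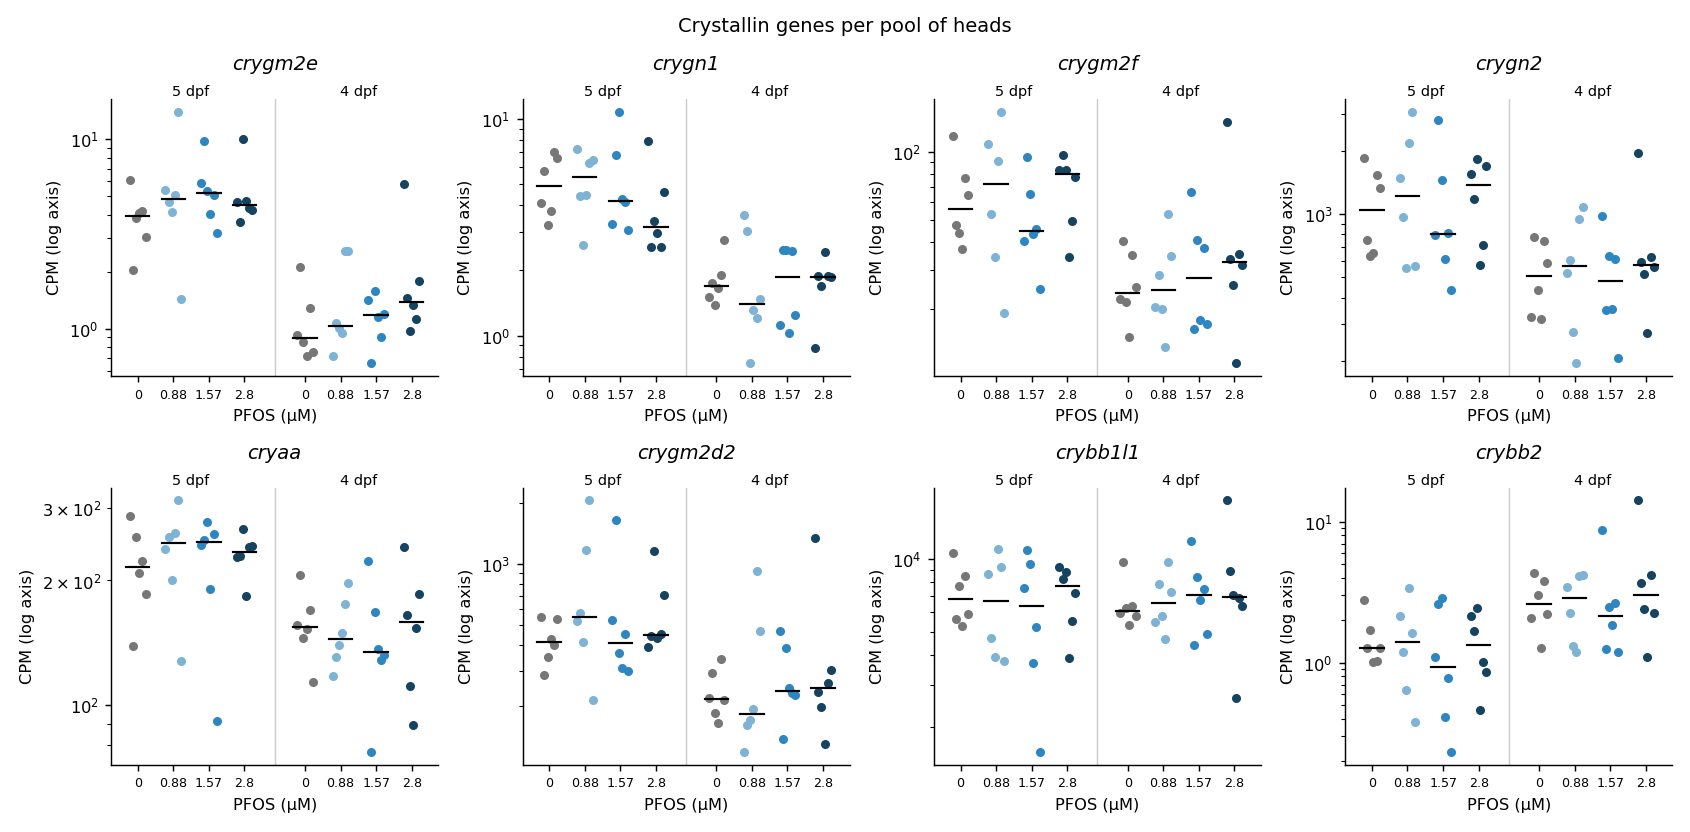
CPM of 8 crystallin genes in every pool (log axis), with 5 dpf left of 4 dpf, PFOS in µM on the horizontal axis (0 is DMSO) and the median of 6 pools as a black line. For crygm2e and crygn1 all 5 dpf pools lie above the 4 dpf median, crybb1l1 shows no shift and crybb2 lies lower at 5 dpf.

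Taken one concentration at a time, the same contrast passed for 5 of 43 members in DMSO (14.2% of all genes). With PFOS it passed for 6 members in the 0.88 µM pools (12.8% of all genes), 6 in the 1.57 µM pools (15.2%) and 3 in the 2.8 µM pools (12.4%). The genes crygm2e and crygn1 passed at each of the 4. The log2 fold change of crygm2e was 1.81 in DMSO and 1.94, 2.27 and 1.42 with rising PFOS, and that of crygn1 was 1.47 in DMSO and 1.46, 1.55 and 1.14 with rising PFOS. The genes crygm2b and crygm2c passed at 0.88 µM, 1.57 µM and in DMSO. Beside them, crygm2f passed at 0.88 µM (1.43) and in DMSO (1.28), cryba2b at 0.88 µM (1.17) and 1.57 µM (1.16), crygmxl1 at 1.57 µM (1.54) and crybb2 at 2.8 µM (-1.65). By limma-trend crygm2b lost its call at 0.88 µM, 1.57 µM and in DMSO. At 0.88 µM it was also lost with sample quality weights and without the 3 libraries that stood apart. There crygm2c was lost with only the groups compared and with the replicate block. Other settings also lost crygm2f at 0.88 µM, cryba2b at both concentrations and crybb2 at 2.8 µM.

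The 2.8 µM count is the lowest, and the difference in age effect between 2.8 µM and DMSO was tested for every gene: no member passed (0.0% of all genes passed), and crygm2d16 had the smallest p (log2 difference -1.08 ± 0.62, unadjusted p = 0.09, adjusted p = 0.948, edgeR). That difference was -0.33 without replicate A at 2.8 µM and 4 dpf and -0.04 with 3 surrogate variables. The other differences between concentrations were not tested.

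Some calls at a single concentration were lost without 1 pool. Counts of passing members in this paragraph and the next are given without the share of all genes in the same fits. At 2.8 µM, crygm2e did not pass without replicate F at 5 dpf (1.12, adjusted p = 0.0666), nor crygn1 without replicate C at 5 dpf (0.78, adjusted p = 0.123). There crybb2 did not pass without replicate G, H or I at 5 dpf or A at 4 dpf. Without replicate A its log2 fold change was -0.96, and 6 members passed. At 1.57 µM, crygm2c and crygmxl1 did not pass without replicate B at 4 dpf, when 3 members passed, though over the fits that left out 1 pool their log2 fold changes were no lower than 1.54 for crygm2c and 1.37 for crygmxl1. There cryba2b was lost without any of replicate D at 5 dpf, where its log2 fold change was 0.43, and replicates B, C, D, E and H at 4 dpf.

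At 0.88 µM the count fell to 2 without replicate G or H at 5 dpf and to 3 without replicate B, F or G at 4 dpf, and it was 10 without replicate I at 5 dpf. There crygm2b was lost without G or H at 5 dpf, and crygm2c, crygm2f and cryba2b kept their calls in 4, 6 and 6 of 12 fits that left out 1 pool. The pools behind the lost calls were A, F, G and H at 5 dpf and B, D, F and G at 4 dpf. Over these fits the log2 fold change of crygm2c lay between 1.41 and 2.06 and that of crygm2f between 1.11 and 1.70, so these calls were close to the threshold, while that of cryba2b was 0.76 without replicate H at 5 dpf. In DMSO, crygm2f kept its call in 4 of 12 such fits and was lost without B, H or I at 5 dpf and A, F, G, H or I at 4 dpf, with log2 fold changes between 1.03 and 1.46. Over all concentrations together, all 13 members kept their call in all 48 fits that left out 1 pool.

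PFOS gave no crystallin call. No member passed an adjusted p of 0.05 at 0.88, 1.57 or 2.8 µM against DMSO at either age, or in a trend per µM at either age, by edgeR, and none did by DESeq2, by limma-trend on the normalized values or in the other settings tried. Among all genes 0.0799% passed at 1.57 µM and 5 dpf, 16 genes in number, and 0.0% in each of the other comparisons. At an unadjusted p under 0.05 in either direction, the 5 dpf pools gave 4 members at 0.88 µM, all higher (5.18% of all genes), 1 at 1.57 µM, lower (5.04%), and 0 at 2.8 µM (1.92%). At 4 dpf there were 0 members at 0.88 µM (1.96% of all genes), 0 at 1.57 µM (1.95%) and 4 at 2.8 µM, all higher (6.0%). The trends gave 0 members at 5 dpf (1.87%) and 1 at 4 dpf, higher (6.1%). The difference in age effect gave 0 (3.82%).

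At 2.8 µM and 4 dpf the fold changes nonetheless leaned one way. Of the 43 members, 41 had a log2 fold change above 0, as did 53.7% of all genes, and their median was 0.76, against 0.03 for all genes. By class the median was 0.00 for cryaa, 0.34 for beta A, 0.54 for beta B, 0.90 for crygm2d, 0.81 for other gamma M and 0.51 for gamma N, S and MX genes. This rests on replicate A. Summed crystallin CPM in the 2.8 µM pools at 4 dpf was 180400 in replicate A and 51190, 43950, 19370, 49240 and 47090 in the other five, against 31720 to 60510 with a median of 37640 in the DMSO pools.

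Outside replicate A, every 2.8 µM pool lay inside the DMSO range or below it. Without that pool the median log2 fold change was 0.05, with 32 members above 0. By class it was then -0.14 for cryaa, 0.04 for beta A, 0.02 for beta B, 0.04 for crygm2d, 0.28 for other gamma M and 0.08 for gamma N, S and MX genes. With all pools and 3 surrogate variables in the fit the median over the 43 members was -0.25, with 5 above 0 and 38 below. The share of all genes above 0 is not given for either fit. Members shared much of their variation between pools, as described further on, so counts of members above 0 are not counts of independent genes. With the surrogate variables, 13 of 43 members had an unadjusted p under 0.05 in either direction, where 5.26% of all genes did. The smallest adjusted p was 0.901 (edgeR). The surrogate variables were estimated from these same 48 libraries, and the part of that adjustment in the share of members was not tested.

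Replicate A at 2.8 µM and 4 dpf also had the highest ribosomal protein level of the series, 9.31 mean log2 CPM against 6.64 to 7.86 in the other pools of its group, and the lowest TMM library factor, 0.538. The factor raises its CPM: unscaled, crystallins took 9.71% of its counts, against 2.43% to 5.08% in the other five. The mean of the lens fibre genes did not stand apart in it, at 3.56 log2 CPM in replicate A and 3.29 to 3.72 in the other five. Single fibre genes did, in both directions. Replicate A was the highest of its group for lim2.3 (66.0 CPM, with 23.7 to 30.0 in the others) and the lowest for bfsp2 (74.5 CPM, with 132 to 234). Skeletal muscle genes were at 10.1 mean log2 CPM, against 8.49 to 9.36. The part of these genes in the crystallin level was not tested.

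The member with the smallest p at 2.8 µM and 4 dpf was crygm2c, with 1.75, 0.11, 0.30, 0.20, 0.17 and 0.37 CPM in the 2.8 µM pools, against 0.12, 0.16, 0.14, 0.08, 0.17 and 0.04 CPM in the DMSO pools. In counts these were 18 reads in replicate A and from 2 to 9 in the others. The log2 fold change was 1.81 ± 0.64 (unadjusted p = 0.00678, adjusted p = 0.748, edgeR) and 0.98 without replicate A. It also had the smallest p at 1.57 µM and 4 dpf (1.04 ± 0.67), at 2.8 µM and 5 dpf (0.72 ± 0.48) and in both trends (0.59 per µM at 4 dpf and 0.25 at 5 dpf), and the adjusted p was at least 0.777 in each. Without replicate A at 2.8 µM the 4 dpf trend was 0.30, and without replicate C at 1.57 µM the value of that concentration at 4 dpf was 0.62. Comparisons of the same age share their DMSO pools, and the trends use the same pools again.

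At 5 dpf and 0.88 µM the lead was held by crygm2d10, with 5961, 3150, 2484, 10920, 33430 and 1824 CPM in the 0.88 µM pools, against 5825, 3533, 3713, 2939, 4632 and 3972 CPM in the DMSO pools. Replicate H was far above the rest, and 2 of the 6 lay below the lowest DMSO pool, so the groups overlapped. The log2 fold change of 1.23 ± 0.53 (unadjusted p = 0.0259, adjusted p = 0.872, edgeR) was 0.25 without replicate H and -0.11 with 3 surrogate variables. At 1.57 µM and 5 dpf it was crygm5 (-1.28 ± 0.57, adjusted p = 0.923), and at 0.88 µM and 4 dpf crygmxl1 (0.93 ± 0.47, adjusted p = 1), both under 1 CPM in most pools. For crygmxl1 the value was 0.52 without 0.88 µM replicate H and 1.43 without DMSO replicate H.

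The remaining medians over the 43 members were smaller. At 5 dpf they were 0.28 at 0.88 µM (32 members above 0, with 49.6% of all genes), 0.02 at 1.57 µM (23 members, 50.3%) and 0.16 at 2.8 µM (34 members, 49.3%). At 4 dpf they were 0.26 at both 0.88 µM (37 members, 51.0%) and 1.57 µM (35 members, 52.8%).

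Each of these turned on single pools. At 5 dpf the medians were 0.02 without 0.88 µM replicate H, -0.34 without 1.57 µM replicate D and -0.01 without 2.8 µM replicate F. Leaving out DMSO replicate B at 5 dpf gave 0.52 at 0.88 µM and 0.35 at 2.8 µM. At 4 dpf the medians were 0.01 without 0.88 µM replicate H and 0.01 without 1.57 µM replicate A, and without DMSO replicate D they were 0.42 and 0.39.

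How small a change could have been seen differed by gene. At 2.8 µM and 4 dpf the 95% interval left out both a doubling and a halving for 7 of the 43 members. It did so for 73.1% of all genes. The median SE there was 0.461 for members and 0.249 for all genes. At 4 dpf the count was 14 at 0.88 µM (78.9% of all genes) and 15 at 1.57 µM (78.6%). The median SE of members was 0.46 at both. Their median log2 fold change was 0.26 at both and 0.76 at 2.8 µM, with replicate A in the fit. For cryaa at 2.8 µM and 4 dpf the interval was -0.46 to 0.47, around medians of 159 CPM at 2.8 µM and 154 CPM in DMSO. For the summed crygm2d genes it was -0.13 to 1.89, around 0.88, with replicate A in the fit and -0.87 to 0.99, around 0.06, without it.

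**Figure D4:**
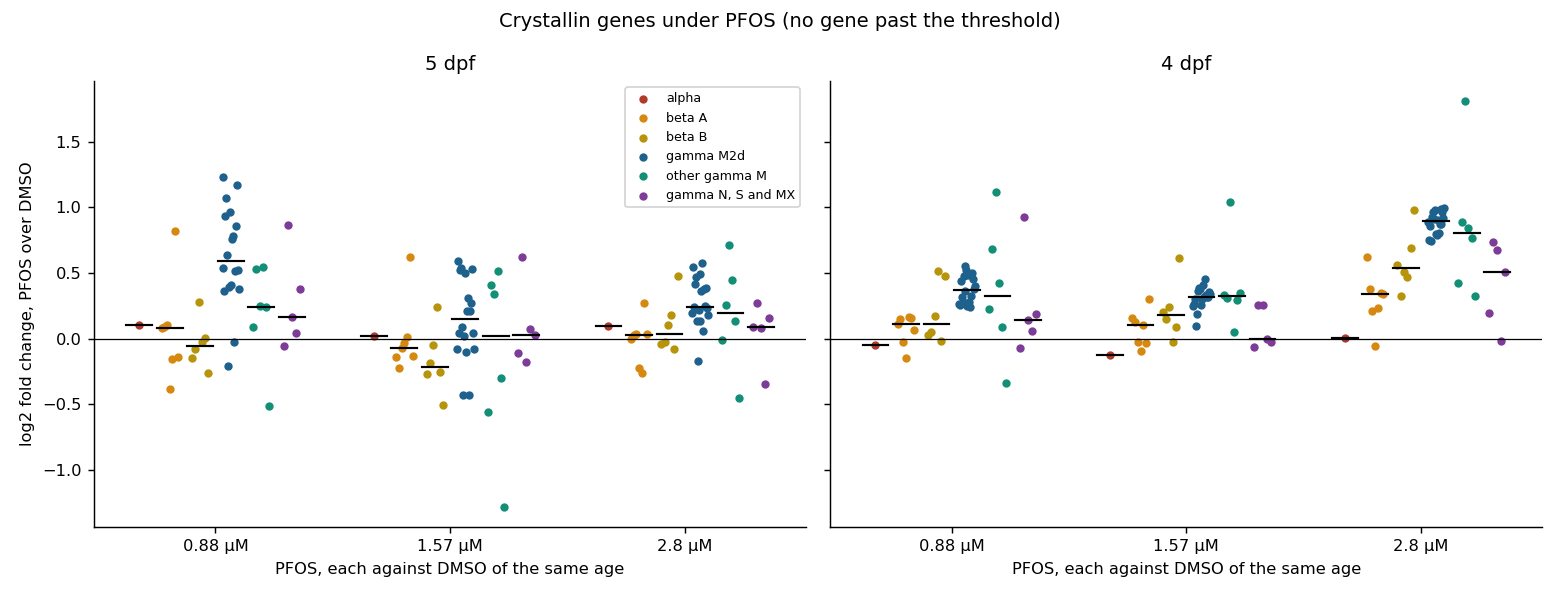
Log2 fold change of each tested member for 0.88, 1.57 and 2.8 µM PFOS over DMSO of the same age (5 dpf left, 4 dpf right), coloured by class with class medians as black lines. No point passed an adjusted p of 0.05; at 2.8 µM and 4 dpf the gamma M2d median is 0.90, which rests on replicate A.

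Within groups, crystallins varied more between pools than most genes. The median within-group SD was 0.792 log2 units over the 43 members and 0.437 over all 20021 genes tested. It was 0.420 for cryaa, 0.574 as the median of the beta A genes, 0.724 of the beta B genes, 0.871 of the crygm2d genes, 0.775 of the other gamma M genes and 0.679 of the gamma N, S and MX genes.

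Much of that variation was shared. Taking each pool's deviation from its group mean, the mean log2 CPM of the 43 members had r = 0.947 with that of 79 ribosomal protein genes over the 48 libraries. The correlation was 0.537 with lens fibre genes, 0.819 with skeletal muscle, 0.744 with pigment epithelium and 0.729 with epidermis genes. It was 0.108 with photoreceptor, -0.256 with neuron and 0.426 with exocrine pancreas genes. The mean of the pancreas genes ran from -2.36 to 7.24 log2 CPM among the 5 dpf pools. Against the ribosomal mean, single lens fibre genes ran from -0.527 to 0.809, so their list mean joins genes that moved in opposite directions. These points share their library and its scaling, so the values describe the libraries and are given with no p.

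The genes most like the crystallin mean by this measure were lsm3, cox7a2a and rnf7 (r = 0.967 each), rack1, rps19, rps21 and tm2d3 (0.966 each), gpr143 and rpsa (0.965 each) and rps14 (0.964). The 4 of these named rps or rpsa encode ribosomal proteins.

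Members differed in how closely they followed that shared level. Every crygm2d gene did, with r between 0.871 and 0.960 against the ribosomal mean. For cryaa r was 0.707, whereas crygn1 had -0.01, crybb1l3 -0.353 and cryba1l2 -0.526.

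Beta A and beta B genes often sit side by side, and neighbours did not always move together. On chromosome 14, cryba1l1 and crybb1l1 lie 2584 bases apart and their deviations had r = 0.917. On chromosome 10, cryba4 and crybb1 lie 14640 bases apart, with r = 0.854. On chromosome 1, however, cryba1l2 lies 4952 bases from crybb1l2 and had r = -0.369 with it, and crybb1l2 had 271 times its counts. On chromosome 15, cryba1a and crybb1l3 overlap, with r = -0.226 and a count ratio of 13.5. The 2 low members of these last pairs, cryba1l2 and crybb1l3, were the ones that ran against the ribosomal level. Both genes of the chromosome 14 pair followed it, with r of 0.833 for cryba1l1 and 0.746 for crybb1l1. No r between distant members is given here, and the part of distance in these values was not tested.

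**Figure D5:**
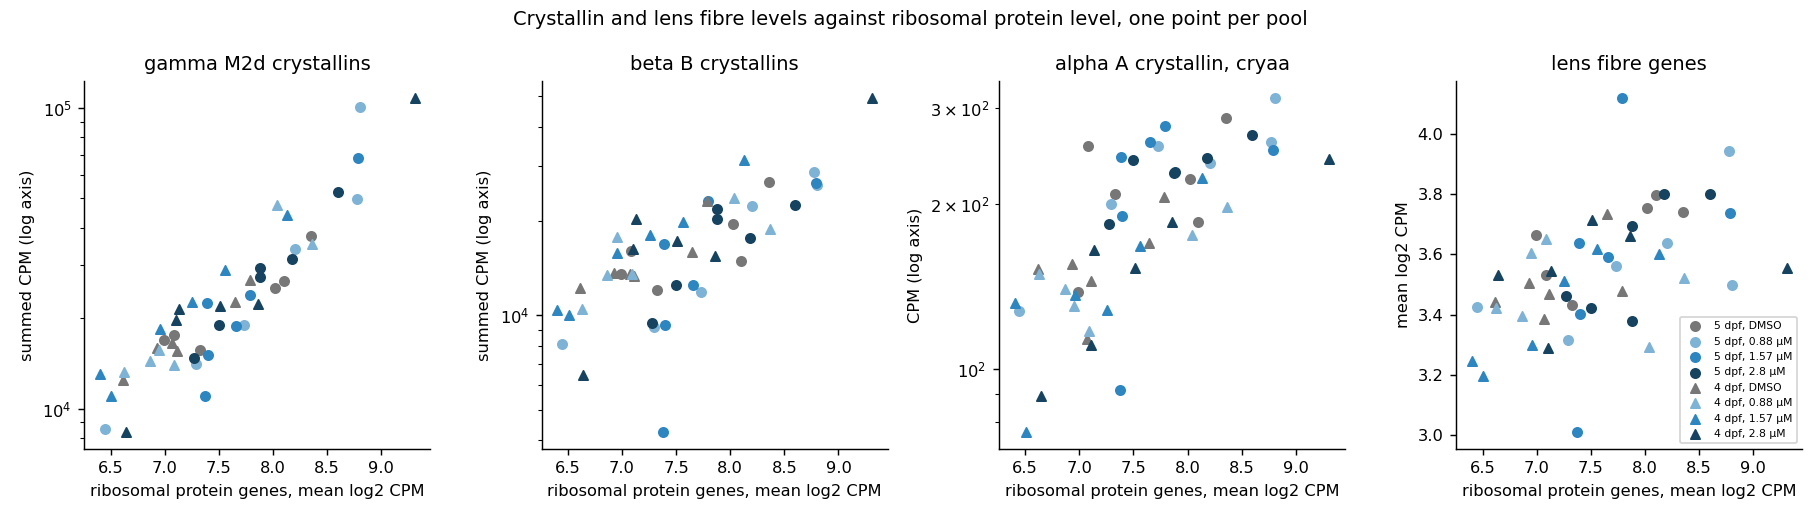
Summed gamma M2d CPM, summed beta B CPM and cryaa CPM (log axes) and the mean log2 CPM of lens fibre genes, each against the mean log2 CPM of 79 ribosomal protein genes, with 1 point per pool (circles 5 dpf, triangles 4 dpf, coloured by PFOS). Gamma M2d rises with the ribosomal level over the whole range, up to 108200 CPM in 2.8 µM replicate A at 4 dpf, and the mean of the lens fibre genes follows it less.

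Other lens genes gave a mixed picture between ages. Of 20 tested lens fibre genes, 13 passed between 5 and 4 dpf over all concentrations (65.0% of the list, with 43.3% of all genes passing): 8 were higher and 5 lower at 5 dpf. The rise of grifin, which encodes a galectin-related lens protein, was 1.53 ± 0.13 (adjusted p = 1.6e-13, edgeR), with medians of 15.4 CPM at 5 dpf and 4.96 CPM at 4 dpf. The fibre membrane protein gene lim2.3 rose too, with medians of 51.8 CPM at 5 dpf and 27.5 CPM at 4 dpf, as did lim2.5 by 0.82 ± 0.14 and lim2.2 by 0.98 ± 0.22.

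Lower at 5 dpf were, among others, dnase1l1l (-0.73 ± 0.18), a nuclease gene whose product clears DNA from fibre cells, and gja8a (-0.42 ± 0.15), a gap junction gene.

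Of 15 tested lens transcription factor genes, 7 were lower at 5 dpf, where 20.5% of all genes were, and 2 were higher, where 22.8% of all genes were. The eye regulators pax6a and pax6b fell by 0.68 and 0.67 on the log2 scale, prox1a, a regulator of fibre differentiation, by 0.50 and hsf4, a heat shock factor of the lens, by 0.93. Several of these genes are also active in the brain and retina of a head pool. Of 8 tested small heat shock genes, the family to which alpha crystallins belong, 3 rose (37.5% of the list, with 22.8% of all genes higher): hspb6 by 1.24 ± 0.11 (adjusted p = 4.15e-13), hspb1 by 0.60 ± 0.13 and hspb2 by 0.59 ± 0.17. None of these genes passed in a PFOS comparison by edgeR, where the smallest adjusted p was 0.748. At an unadjusted p under 0.05 there were 0 at 2.8 µM and 4 dpf, where 6.0% of all genes passed. The lists held 20, 15 and 8 tested genes. At any other concentration and age there were at most 2 in 1 list, where 1.92% to 5.18% of all genes passed.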

How the data were processed

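Libraries of polyA RNA from 48 head pools, amplified for 13 PCR cycles, were read single-end for 75 cycles, per the labels' protocols. The submitters' processing notes name STAR 2.5.3a, Partek 8.0.19.0428 and GRCz11. The sources used here give neither the gene annotation nor any use of strand. The authors deposited expected counts per gene (81.2% of values whole within 0.01) and, for 20466 genes, log2 values after quantile normalization, per the file headers and values. The second table holds 44 of the 53 members and was used only for limma-trend.

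Expected counts were rounded, filtered by filterByExpr by group (20021 genes, 99.929 to 99.974% of each library's counts) and scaled by TMM. One model of 8 groups over 48 libraries was fitted in R 4.3.3 with edgeR 4.0.16 (glmQLFit, glmQLFTest), without covariates, and p-values were adjusted after Benjamini and Hochberg at a threshold of 0.05. Standard errors were derived from log2 fold changes and their F values, 95% intervals use it with 40 residual degrees of freedom, and log2 CPM used a prior count of 2. The fit was tested on simulated counts, with no result given here. Those counts were drawn gene by gene, without variation shared between genes and without pools that stand apart. They therefore do not cover these features of the data.

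Members and lists were chosen with earlier results of these data known. Named were all alpha genes, the 4 most abundant genes each of the beta A, beta B, gamma M and gamma N, S and MX groups, up to 4 higher and 4 lower called members per comparison or, with none under PFOS, that of smallest p, the 10 genes most like the crystallin mean, and up to 4 called genes per lens list; other members are named after their values were seen. Other settings were RLE, no filter, 1 CPM in 6 libraries, DESeq2 1.42.0, blocking on the replicate letter, a fit of the compared groups alone, limma-trend (limma 3.58.1), leaving out each pool, leaving out the 3 low-correlation libraries, 3 surrogate variables (sva 3.50.0) and sample quality weights, and, chosen after seeing the data, the crygm2d genes summed, with all libraries, without 2.8 µM replicate A at 4 dpf and without the 3 low-correlation libraries. No library was left out of the main values. Libraries were sequenced in 3 pools of 16, and the sources used here do not tie a library to its pool, so no within-batch value could be had. No sequence is shown, since none of these genes' sequences was used here.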

Additional observations from a re-analysis of the deposited data

Results flagged for a closer look

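Groups of 6 pools were screened for a highest or lowest pool set off from the rest by more than 0.625 of the group's range. Of 240 groups 14 had one, near the 1 in 20 that independent normal values give. Summed CPM was screened without logs, and the groups share pools and genes, so that rate is a rough guide. Replicate A at 2.8 µM and 4 dpf was the highest pool for the summed CPM of all crystallins (gap 0.802 of the range), beta A (0.688), beta B (0.68), crygm2d (0.86), other gamma M (0.815) and gamma N, S and MX genes (0.717). For single genes it was highest in log2 CPM of crygm2d17 (0.647) and crygm2e (0.669) and lowest of crygn1 (0.643, at -0.05 log2 CPM, with the nearest pool at 0.84). These 9 share 1 pool and are not independent.

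In DMSO at 4 dpf, replicate D was highest for summed beta B genes (0.66; 23200 CPM, with the next pool at 15930) and for crybb1l1 (0.698). At 5 dpf, replicate D at 1.57 µM was highest for summed crygm2d genes (0.774; 68150 CPM, with the next at 23880), replicate I at 1.57 µM was lowest for cryaa (0.659; 6.52 log2 CPM, with the next at 7.57), and replicate F at 2.8 µM was highest for crygm2e (0.746). The cause was not tested.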

How the results depend on the processing

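The count of called members stayed at 0 in every PFOS comparison, both trends and the difference between ages under all settings run, the 48 fits without 1 pool included. Over all concentrations, age gave 12 to 19 called members in the settings and 13 to 19 without 1 pool, against 13. Single-concentration counts moved more. Shares of all genes passing in each setting are not given here, so these counts do not set crystallins apart from other genes. For DMSO (5 called) they were 8 with only the groups compared, 12 with 3 surrogate variables and 11 with sample quality weights, and 4 to 5 without 1 pool. For 0.88 µM (6) they were 2, 14 and 11 in that order, 3 without the low-correlation libraries and 2 to 10 without 1 pool. For 1.57 µM (6) the count was 16 with 3 surrogate variables and 3 to 8 without 1 pool. For 2.8 µM (3) it was 5 with the replicate block, 7 without the low-correlation libraries, 17 with 3 surrogate variables, 8 with sample quality weights and 2 to 6 without 1 pool. The cause was not tested.

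The 33 called pairs of gene and comparison were recomputed 1223 times in all: 1159 kept their call, 64 lost it and 0 changed direction. All 64 losses fell on calls at a single concentration. The 13 calls over all concentrations, each with 48 fits that left out 1 pool, lost none. Replicate letters showed no common pairing of the pools: over 114 same-letter pairs the correlation of deviations had a median of 0.0204 (-0.606 to 0.532), against 0.00216 for different letters. Of the same-letter pairs, 42 had r over 0.1, so this does not settle whether some letters pair pools. With the replicate block, 18 members were called over all concentrations, 6 in DMSO, 5 at 0.88 µM and 6 at 1.57 µM, and 0 under PFOS. The shares of all genes passing in the blocked fit are not given, so these counts do not set crystallins apart either. Low counts limit crygm2b, crygm2c, crygmxl1 and the 10 members not tested, and shared reads limit single crygm2d genes.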

Other observations

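Members not tested for low counts showed these values. With no filter, an adjusted p under 0.05 between 5 and 4 dpf over all concentrations was reached by crygm7 and crygm1, and the other 8 had adjusted p from 0.31 upwards by edgeR. No count of crygm7 was found in 6 of 24 pools at 5 dpf and in 17 of 24 at 4 dpf, and for crygm1 in 14 and 21. The gamma S genes crygs1, crygs2 and crygs4, whose counterpart is a main gamma crystallin of the mammalian lens, had 110, 126 and 13 counts in the whole series.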
